A study of Homo sapiens with 24 samples.

Results

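The HOXB cluster is the group of HOX genes on human chromosome 17, with 9 members here, HOXB1, HOXB2, HOXB3, HOXB4, HOXB5, HOXB6, HOXB7, HOXB8 and HOXB9. It was read as every region overlapping chr17:46600000-46720000 on hg19 in each library, which gave 24 regions of the 153244 in the series. The cluster was chosen by its H3K4me3 counts, since regions near HOXB6 had less of this mark in knockdown libraries. H3K4me3 differences between knockdown and control are therefore a description: no p is given for them, and a region said to be called in H3K4me3 describes how the cluster was chosen. The other marks were tested.

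The cells were ventricular-like cardiomyocytes differentiated from H9, a human embryonic stem cell line, and collected at day 15. There were 3 ZNF436 knockdown libraries and 3 control libraries for each of H3K4me3, H3K27ac, H3K4me1 and H3K9me3, 24 libraries in all. ZNF436 encodes a zinc finger protein, and the sources used here give neither the means of the knockdown nor what the controls received. CUT&Tag, the assay used, lets an antibody bring a transposase to a histone mark, so that a read count per region follows the amount of mark there. The data hold histone marks only, so neither the level of ZNF436 nor cardiomyocyte RNA could be checked in them. A single cell line was used, and no label ties a replicate to a culture of its own, so the p-values measure the spread between libraries, which may be technical.

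HOX genes encode homeodomain transcription factors that give cells their position along the head-to-tail axis. They are switched on in their order along the chromosome, the 3′ end (HOXB1) first, and retinoic acid is a classical inducer of that end. In mouse, Hoxb1 marks progenitors of the second heart field, which build the outflow tract and atria. H3K4me3 marks active and poised promoters, H3K27ac marks active promoters and enhancers, H3K4me1 is broad around enhancers, and H3K9me3 marks repressed heterochromatin.

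A promoter sequence was at hand for HOXB1, the most 3′ member, and it is shown because its start held the most H3K4me1 of the cluster per length in both groups. It covers the 250 bases before the annotated start, from RefSeq on GRCh38.p14, chr17:48531012-48531261 on the minus strand, in a different build from the count regions. Capitals mark matches, on either strand, to CCAAT and to TGATNNAT, a motif of joint PBX and HOX binding.
HOXB1 promoter: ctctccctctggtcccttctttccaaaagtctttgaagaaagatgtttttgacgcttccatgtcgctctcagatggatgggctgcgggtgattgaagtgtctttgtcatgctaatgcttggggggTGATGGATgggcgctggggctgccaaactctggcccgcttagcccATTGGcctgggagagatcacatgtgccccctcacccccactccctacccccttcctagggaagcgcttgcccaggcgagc
Among 35116 RefSeq promoters of 300 bases, 7.4% held TGATNNAT and 34.6% held CCAAT, neither overlapping the other in HOXB1. TATAAA, found in 11.5% of promoters, was not among the letters of this window. The exact direct repeat of AGGTCA with 5 bases between, a form of retinoic acid response element, was found in 2 promoters and not in this window. Looser forms were not searched, so this does not show that such an element is absent. Both strands were searched for every motif, over 300 bases: the 250 shown and the 50 after the start, which are not shown. These 300 bases of HOXB1, and not the 250 shown alone, held 11 CpG, against a median of 14 over all promoters, and their GC share was 58.0%.

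The cluster also carries microRNA genes that target HOX transcripts, MIR10A between HOXB4 and HOXB5 and MIR196A1 beyond HOXB9. Their mature sequences from RefSeq are given to place them beside the regions described, with the seed (bases 2 to 8) in capitals.
hsa-miR-10a-5p: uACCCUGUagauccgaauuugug
hsa-miR-196a-5p: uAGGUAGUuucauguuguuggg
The seeds of miR-10a and miR-196a differ, so these are members of different seed families. The marks were counted over regions and not over microRNA transcripts.

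Library totals over all regions were 11023905 to 13933927 counts for H3K4me3, 2955710 to 3681687 for H3K27ac, 3920283 to 4936265 for H3K4me1 and 2103185 to 2880412 for H3K9me3. The cluster held 5335 H3K4me3 counts over the knockdown libraries and 6984 over the control libraries. It held 1470 and 1488 for H3K27ac, 1331 and 1384 for H3K4me1, and 555 and 461 for H3K9me3, so H3K4me3 was measured most finely and H3K9me3 most coarsely. One H3K4me3 library stood apart within its group in the cluster. Control replicate 3 was the lowest control library in 13 of the 17 cluster regions that passed the filter on low counts, and where it decides a statement the value without it is given too. Values without control replicate 3 are also given for H3K27ac and H3K4me1. There it was the lowest control in 3 of the 9 and in 7 of the 14 regions that passed. In bulk samples of this kind, fewer marked cells and less mark per cell cannot be told apart.

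The regions are numbered 1 to 24 from the HOXB1 side. They covered 28.5 kb of the 120 kb and were 253 to 4598 bp wide, against a median of 708 bp in the series. Genes were placed on hg19 from general knowledge, to the nearest kb, and "at the start" means within 1 kb. HOXB3 was placed by a form shorter than its longest annotated transcript, which reaches past HOXB4. Whether groups overlap was read on CPM. By this placing, 9 regions (1 to 9) lay in the stretch from HOXB1 to HOXB3. The stretch called HOXB4 to HOXB8 held 11 (10 to 20), and 4 (21 to 24) lay at HOXB9 and beyond. Region 10, near the HOXB3 start, was counted in the HOXB4 to HOXB8 stretch. No region of the series lay in the 13.66 kb gap that holds HOXB8, so the last region of that stretch lay within HOXB7 and HOXB8 itself was not measured.

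In control cells H3K4me3 was uneven along the cluster and was concentrated at HOXB2, a factor of hindbrain segment patterning. Levels per length are given here in CPM, counts scaled to library size, per kb of region. Region 4 at the HOXB2 start (chr17:46618237-46622834) had 19.8 CPM per kb in knockdown cells and 18.4 in control cells, above 94.7% and 94.4% of all regions of the series. This 1 region held 60.2% of the cluster's H3K4me3 in knockdown cells and 45.4% in control cells. The HOXB2 start carried by far the most of the cluster's promoter mark in both groups.

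**Figure D1:**
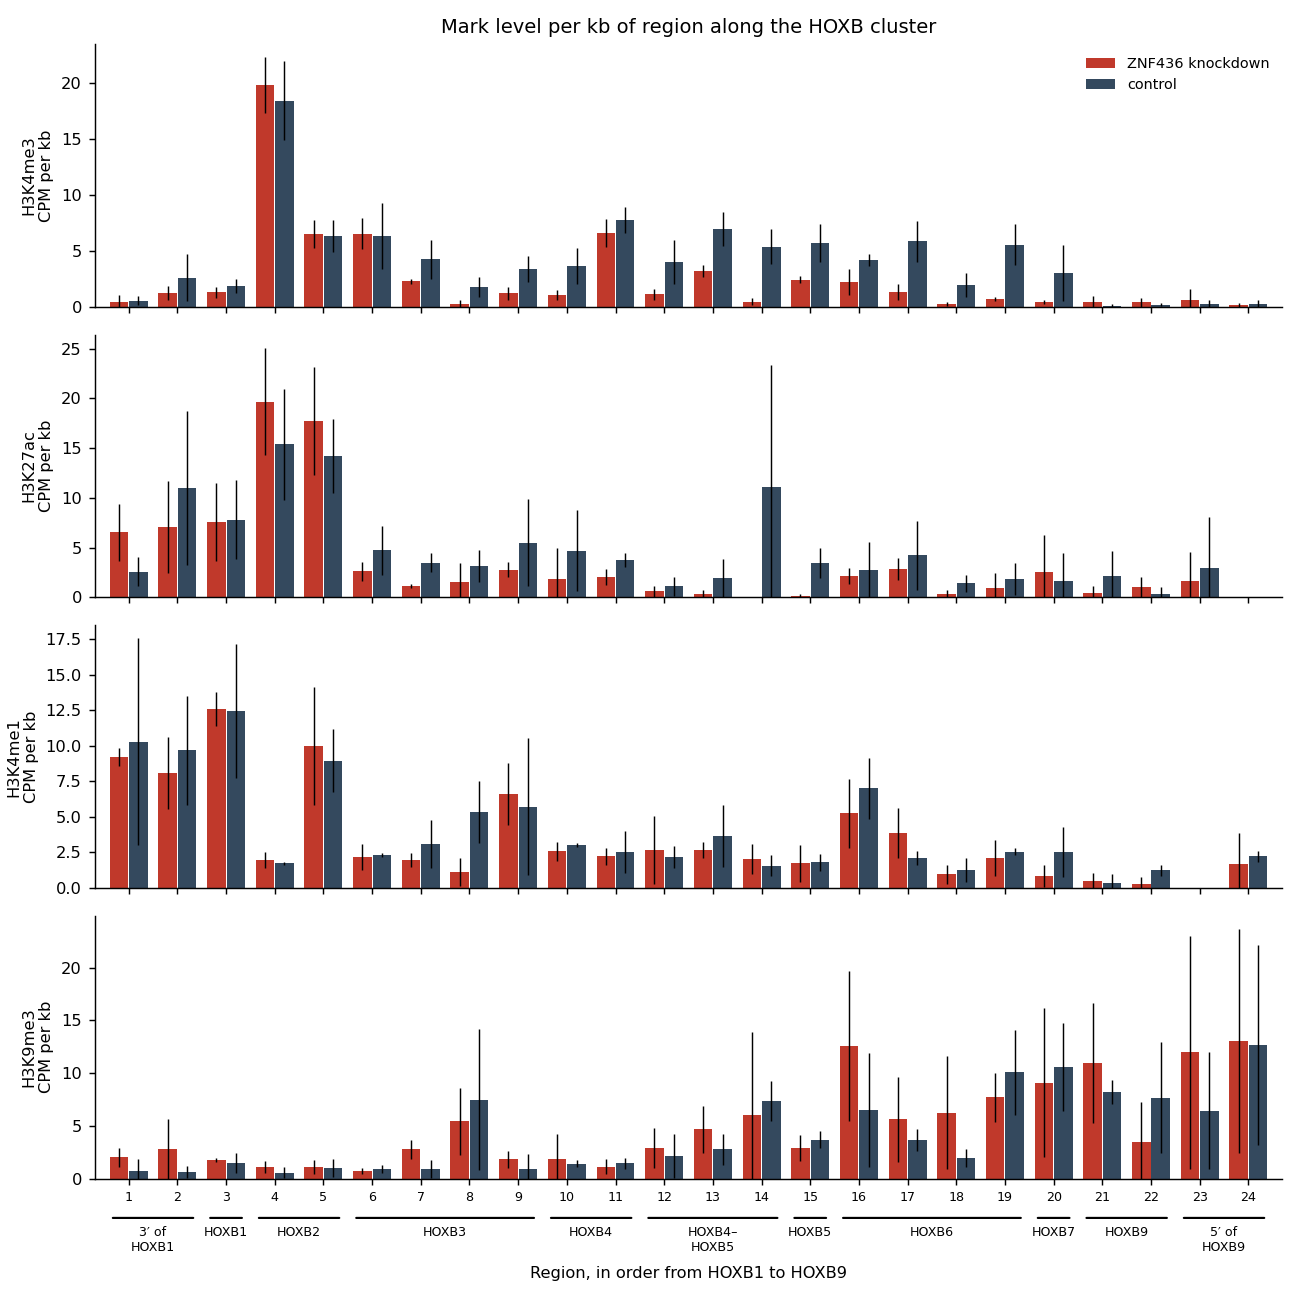
Mean level of each mark (CPM per kb of region; bars are SD, n = 3 libraries) along the HOXB interval, knockdown and control. H3K4me3 and H3K27ac peak at the HOXB2 start (19.8 and 19.7 CPM per kb in knockdown cells), H3K4me1 peaks at the HOXB1 start, and H3K9me3 is highest toward HOXB9.

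At the HOXB1 end, H3K4me3 overlapped between the groups, with lower means in knockdown at HOXB1 and similar means at HOXB2. HOXB1, which sets the identity of a hindbrain segment, had 20, 49 and 28 counts in knockdown libraries and 33, 72 and 42 in control libraries at its start (region 3, chr17:46606195-46608302). These averaged 2.69 ± 1.07 CPM in knockdown and 3.88 ± 1.26 CPM in control (SD, n = 3 each), a log2 fold change, knockdown over control, of -0.52, and the libraries overlapped. The HOXB2 start had 1119, 1083 and 1002 counts in knockdown libraries and 793, 1223 and 1144 in control libraries, or 91.2 ± 11.6 CPM and 84.7 ± 16.3 CPM. The groups overlapped, and the log2 fold change was 0.10, or -0.035 without control replicate 1. Region 6 within HOXB3 (chr17:46631082-46633449), a gene of hindbrain and pharyngeal patterning, had 192, 209 and 142 counts in knockdown libraries and 159, 124 and 264 in control libraries. The controls spread more widely than the knockdown libraries there, and enclosed them.

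Farther into HOXB3 the groups parted. Region 7 (chr17:46640502-46642387) had 48, 48 and 54 counts in knockdown libraries and 119, 133 and 49 in control libraries, averaging 4.26 ± 0.37 CPM and 7.97 ± 3.26 CPM. Control replicates 1 and 2 were above every knockdown library, and control replicate 3 was among them. Region 9 (chr17:46647354-46648188) had 16, 6 and 12 counts in knockdown libraries and 34, 52 and 21 in control libraries, with a log2 fold change of -1.52. Here the groups did not overlap. The region nearest the HOXB3 start, region 10 (chr17:46652716-46653735), which lies at the 3′ end of HOXB4, had 14, 7 and 16 counts in knockdown libraries and 43, 74 and 25 in control libraries, a log2 fold change of -1.81 without overlap.

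HOXB4, a factor known for expanding blood stem cells, had H3K4me3 at its start in both groups. Region 11 at that start (chr17:46654514-46656637) had 151, 207 and 136 counts in knockdown libraries and 204, 253 and 159 in control libraries, or 13.9 ± 2.63 CPM and 16.4 ± 2.47 CPM. The groups overlapped and the log2 fold change was -0.24, the smallest in size between HOXB4 and HOXB8. Without control replicate 3 the groups did not overlap, and it was -0.35. Region 12, about 1 kb from MIR10A (chr17:46658654-46659852), had 15, 9 and 23 counts in knockdown libraries and 68, 89 and 24 in control libraries. Control replicate 3 was close to the highest knockdown library and far below the other controls.

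HOXB5, a regulator of neural crest and vascular cells, had 45, 54 and 40 H3K4me3 counts in knockdown libraries and 131, 148 and 70 in control libraries at its start (region 15, chr17:46669680-46671307). The means were 3.94 ± 0.55 CPM and 9.27 ± 2.82 CPM, a log2 fold change of -1.24, and the groups did not overlap. Between HOXB4 and HOXB5, region 14 (chr17:46664814-46665119) had 1, 3 and 1 counts in knockdown libraries and 26, 20 and 15 in control libraries. Its log2 fold change of -3.45, on few counts, was the lowest of the 17 tested cluster regions. Region 13 (chr17:46662582-46663589), with 35, 47 and 32 counts in knockdown and 99, 100 and 62 in control, also had all knockdown libraries below all controls.

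HOXB6 held the 2 regions that chose the cluster, so their values describe that choice. Region 19, about 1 kb from the HOXB6 start (chr17:46679187-46680541), had 9, 15 and 9 counts in knockdown libraries and 88, 138 and 59 in control libraries. Region 17 within HOXB6 (chr17:46673343-46674233) had 19, 15 and 6 counts in knockdown libraries and 59, 95 and 43 in control libraries. In both, every knockdown library was below every control, with log2 fold changes of -3.00 and -2.18. Between them lay region 18 (chr17:46677523-46678701), which was not called, with 0, 4 and 5 counts in knockdown libraries and 30, 46 and 11 in control libraries.

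HOXB7, HOXB8 and HOXB9 are the most 5′ members and the last to be switched on in the embryo. HOXB8 was not measured, and HOXB9 had little H3K4me3 in either group. The region within HOXB7 had 0.45 CPM per kb in knockdown cells and 3.01 in control cells, where the HOXB1 start had 1.28 and 1.84. Region 20 within HOXB7 (chr17:46686340-46686837), also the nearest region to HOXB8, had 2, 2 and 4 counts in knockdown libraries and 29, 27 and 1 in control libraries. Control replicate 3 was below the knockdown libraries there, and this region did not pass the filter on low counts. The region nearest the HOXB9 start, region 22 (chr17:46704706-46705342), had 0, 6 and 3 counts in knockdown libraries and 2, 2 and 0 in control libraries. At HOXB9 no library showed more than a few counts in a region, so a difference between the groups was not detectable at this depth.

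**Figure D2:**
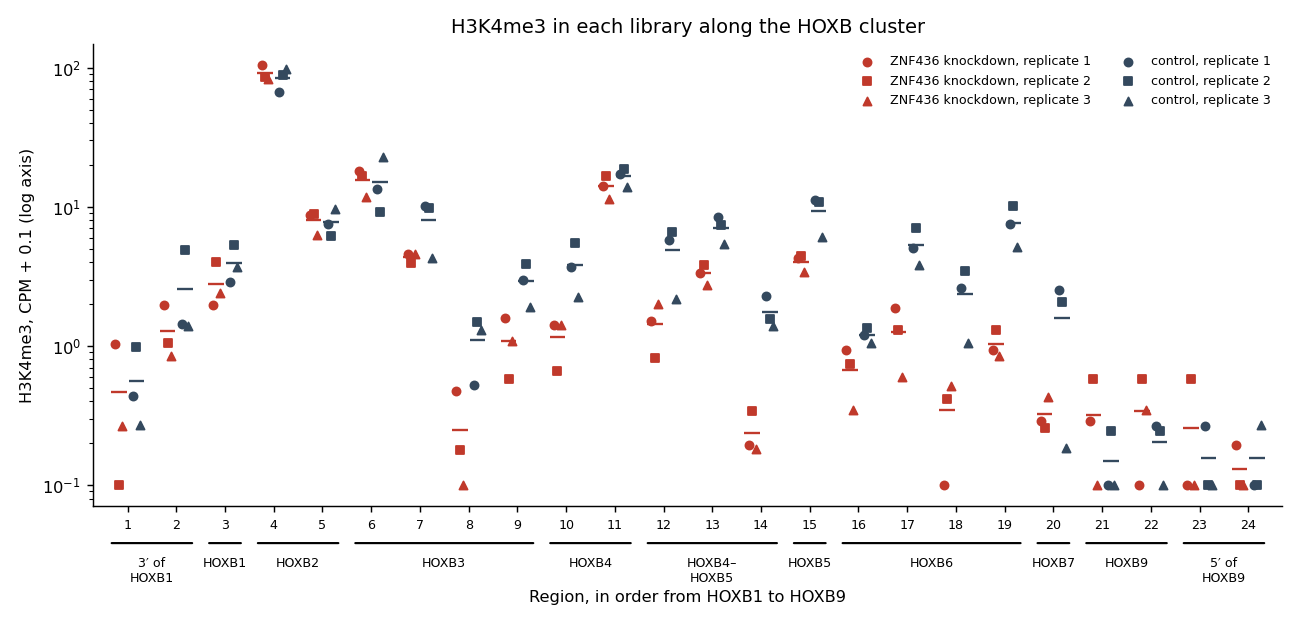
H3K4me3 in each library (CPM with 0.1 added, log axis) for regions 1 to 24 in order from HOXB1 to HOXB9, knockdown and control. At the HOXB2 start (region 4) the libraries of both groups lie together, while at regions 17 and 19 near HOXB6 the 3 knockdown libraries lie below the 3 control libraries.

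The remaining regions add to this picture on smaller counts. Region 2, beyond the 3′ end of HOXB1, had 20, 12 and 9 counts in knockdown libraries and 16, 66 and 15 in control libraries, with a log2 fold change of -1.08. Region 5, beside HOXB2, had 93, 111 and 75 in knockdown libraries and 88, 83 and 111 in control libraries. Both overlapped between the groups. Region 8 in HOXB3 had 4, 1 and 0 counts in knockdown libraries and 5, 19 and 14 in control libraries and did not pass the filter. Region 16 at the 3′ edge of HOXB6 had 9, 8 and 3 counts in knockdown libraries and 13, 17 and 11 in control libraries, with every knockdown library below every control. Regions 21 and 23, near and beyond HOXB9, had no more than 6 counts in any library.

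Of the 24 regions, 17 passed the H3K4me3 filter, and 14 of these had a log2 fold change below 0. In the H3K4me3 fit over all 26773 regions that passed the filter, 0.56% were called in either direction at an adjusted p of 0.05 and 0.187% were called lower. In the cluster 2 of the 17 were called lower, both at HOXB6, and none higher. Knockdown libraries were all below all control libraries in 10 of the 17, and in 7.74% of all tested regions. None of the 17 had knockdown above control without overlap, where 8.49% of all tested regions did. The median log2 fold change was -1.11 over the 17 cluster regions and -0.0075 over all tested regions. These counts describe the measure that chose the cluster and are not independent evidence of its direction. Over all 24 regions, knockdown was below control without overlap in 11, and in 14 when control replicate 3 was left out. No share over all regions of the series is given for these 2 counts. Leaving out a library makes overlap less frequent in any region, so the rise is not a result about the cluster.

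Summed by stretch, the HOXB4 to HOXB8 regions had 28.0, 29.5 and 22.7 CPM of H3K4me3 in knockdown libraries and 66.4, 73.5 and 41.3 CPM in control libraries. The HOXB1 to HOXB3 regions had 142, 121 and 109 CPM in knockdown libraries and 105, 130 and 143 CPM in control libraries. The first stretch separated the groups and the second did not. The log2 ratio of the means was -1.17 in the first, or -1.39 without control replicate 3, and -0.02 in the second. The second is mostly the HOXB2 start: without region 4, its sums were 37.6, 34.7 and 26.6 CPM in knockdown libraries and 38.5, 40.9 and 44.5 CPM in control libraries. These did not overlap, with a log2 ratio of -0.32. It was -0.95 in the HOXB4 to HOXB8 stretch without the 2 regions that chose the cluster. The split into stretches was made after the values were seen, and no test was made between them.

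H3K27ac, which the choice of the cluster did not use, was high over the HOXB2 start and the regions beside it. Region 4 had 343, 178 and 283 counts in knockdown libraries and 205, 123 and 263 in control libraries, or 90.4 ± 24.8 CPM and 70.8 ± 25.7 CPM (SD, n = 3 each). The groups overlapped, and edgeR's quasi-likelihood test gave a log2 fold change of 0.35 (SE 0.28, adjusted p = 0.691). Per length this was 19.7 CPM per kb in knockdown cells and 15.4 in control cells, close to region 5 between HOXB2 and HOXB3 (chr17:46623841-46625056), with 17.7 and 14.2 CPM per kb. Active marks were thus found at the HOXB2 start and on its HOXB3 side in both groups. The HOXB1 start had 72, 40 and 26 counts in knockdown libraries and 42, 25 and 70 in control libraries, with no direction shared by the libraries (log2 fold change -0.05, SE 0.48, adjusted p = 0.983).

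From the middle of HOXB3 to HOXB5, the H3K27ac values were lower in knockdown libraries in several regions, without passing the test. Region 7 in HOXB3 had 6, 7 and 6 counts in knockdown libraries and 25, 14 and 16 in control libraries, averaging 2.18 ± 0.42 CPM and 6.54 ± 1.83 CPM. The groups did not overlap, but the log2 fold change of -1.57 (SE 0.77) had an adjusted p of 0.456 in edgeR's test over all regions. The HOXB4 start had 14, 15 and 8 counts in knockdown libraries and 28, 20 and 19 in control libraries, again without overlap (log2 fold change -0.89, SE 0.65, edgeR adjusted p = 0.662). Region 10 at the 3′ end of HOXB4 had 0, 0 and 18 counts in knockdown libraries and 19, 21 and 0 in control libraries. Replicate 3 of each group went against the other replicates, so no direction was shared. The log2 fold change of region 10 was -1.30. Without control replicate 3 its groups did not overlap, and it was -1.84 (edgeR adjusted p = 0.473). It was -0.99 without control replicate 1 and -0.79 without control replicate 2. Leaving out knockdown replicates 1, 2 and 3 in turn gave -0.71, -0.72 and -6.73, the last with no knockdown counts left.

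The HOXB5 start did not pass the H3K27ac filter. It had 0, 0 and 2 counts in knockdown libraries and 8, 18 and 20 in control libraries, and the groups did not overlap. The ratio of the summed counts, scaled by library size, was 0.0411, with an exact 95% interval of 0.00484 to 0.157 that covers counting error only. With no filter on low counts, edgeR gave a log2 fold change of -4.36 with an unadjusted p of 0.00194 and an adjusted p of 0.175, so this difference did not pass. Region 14, between HOXB4 and HOXB5, had 0 H3K27ac counts in all 3 knockdown libraries and 5, 2 and 21 in control libraries. At a floor of 3 counts over the knockdown group it was 9.86-fold lower, or 3.66-fold without control replicate 3, which held most of the control counts. These folds are no bound, since counting error of the controls is not covered. The adjusted p of region 14 with no filter was 0.275 in edgeR's test. Ratios were given for these 2 regions because a group had 3 counts or fewer and the other 20 or more. Large ratios follow from that choice. Both regions also had less H3K4me3, the mark that chose the cluster, in knockdown libraries than in control libraries.

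The HOXB6 regions that chose the cluster had few H3K27ac counts. Region 19 had 0, 0 and 12 counts in knockdown libraries and 12, 9 and 0 in control libraries. Region 17 had 8, 4 and 11 counts in knockdown libraries and 20, 10 and 2 in control libraries. The groups overlapped in both, and neither passed the filter. Without control replicate 3 they still overlapped at region 19, but not at region 17, where knockdown was lower.

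Of the 24 regions, 9 passed the H3K27ac filter and none was called, where 0.0114% of all tested regions were called in either direction by edgeR. None of the 9 had an unadjusted p under 0.05, against 11.3% of all tested regions. The log2 fold change was below 0 in 6 and above 0 in 3, with a median of -0.64, against -0.048 over all tested regions. Groups did not overlap in 3 of the 9 regions. Knockdown was lower in 2 of them, at region 7 and the HOXB4 start, where 8.37% of all tested regions did the same. It was higher in 1, region 1 at the outer HOXB1 edge (chr17:46599314-46600152), where 9.14% did so. That region had 24, 12 and 12 counts in knockdown libraries and 8, 8 and 2 in control libraries (log2 fold change 1.33, SE 0.88, edgeR adjusted p = 0.618).

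Summed over the HOXB4 to HOXB8 stretch, H3K27ac was 10.2, 12.1 and 18.2 CPM in knockdown libraries and 43.4, 34.1 and 25.7 CPM in control libraries. The groups did not overlap, and the log2 ratio of the means was -1.35, from 121 counts in knockdown and 289 in control. Of the 11 regions in this sum, 9 did not pass the H3K27ac filter on low counts. Over HOXB1 to HOXB3 the sums were 185, 138 and 132 CPM in knockdown libraries and 151, 101 and 172 CPM in control libraries, a log2 ratio of 0.10. The sums of chosen regions were given no test.

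**Figure D3:**
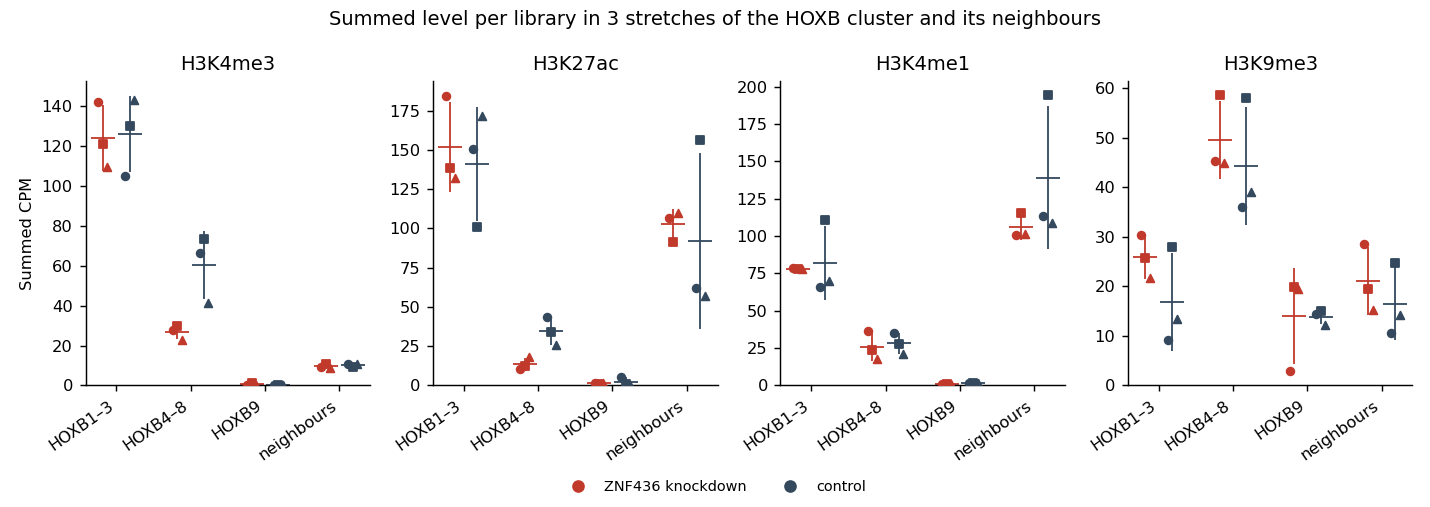
Summed level (CPM) per library of each mark over the HOXB1 to HOXB3, HOXB4 to HOXB8 and HOXB9 regions and over the regions within 120 kb outside the cluster, knockdown left of control, with mean and SD (n = 3). Over HOXB4 to HOXB8, the knockdown libraries lie below the control libraries for H3K4me3 (26.8 against 60.4 CPM on average) and H3K27ac (13.5 against 34.4 CPM), and overlap them for H3K4me1 and H3K9me3. For H3K27ac, 9 of these 11 regions did not pass the filter on low counts.

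H3K4me1 was centred on HOXB1 and not on HOXB2. The HOXB1 start had 94, 120 and 125 counts in knockdown libraries and 69, 144 and 107 in control libraries, or 26.5 ± 2.52 CPM and 26.2 ± 9.92 CPM. At 12.6 and 12.4 CPM per kb it stood above 92.2% of regions in knockdown cells and 90.9% in control cells. The HOXB2 start, with the most H3K4me3, had 1.97 CPM per kb of H3K4me1 in knockdown cells and 1.73 in control cells. The regions on both sides of HOXB1 and HOXB2 were higher than the HOXB2 start itself, with 9.20 and 10.3 CPM per kb at region 1, and 9.98 and 8.96 at region 5. Over the HOXB1 to HOXB3 stretch, the H3K4me1 sums were 78.6, 78.2 and 77.8 CPM in knockdown libraries and 65.8, 111 and 69.6 CPM in control libraries.

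No HOXB region passed the test for H3K4me1. Of the 24 regions 14 passed the filter, and none was called by edgeR, where 0% of all tested regions were called. None of the 14 had an unadjusted p under 0.05, against 10.5% of all tested regions, and the smallest adjusted p was 0.695. None of the 14 had groups without overlap, where 7.68% of all tested regions had knockdown below control and 7.9% above it. The HOXB1 start had a log2 fold change of 0.02 (SE 0.27, edgeR adjusted p = 0.985). At region 19 near HOXB6 the counts were 18, 11 and 6 in knockdown libraries and 17, 13 and 13 in control libraries (log2 fold change -0.29, SE 0.66, edgeR adjusted p = 0.909). Region 17, the other HOXB6 region that chose the cluster, did not pass the filter and averaged higher in knockdown, with 20, 9 and 14 counts in knockdown libraries and 8, 6 and 9 in control libraries. Its groups overlapped, but not without control replicate 3. Region 8 in HOXB3, also below the filter, had 4, 0 and 4 counts in knockdown libraries and 9, 18 and 10 in control libraries, without overlap. The HOXB4 to HOXB8 sums were 36.6, 23.4 and 17.6 CPM in knockdown libraries and 35.4, 27.8 and 21.05 CPM in control libraries, and the groups overlapped. The H3K4me3 and H3K27ac values of that stretch were lower in knockdown while its H3K4me1 values overlapped, and the difference between marks was not tested.

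H3K9me3, the mark of constitutive heterochromatin, was mostly lower toward HOXB1 and higher toward HOXB9. In control cells regions 1 to 7, at the HOXB1 end, stood at the 31.0 to 56.0 percentiles of all regions per length, and regions 19 to 24, from HOXB6 outward, at the 72.8 to 87.7 percentiles. The same regions stood at 24.2 to 60.5 and at 63.3 to 86.5 in knockdown cells. The order was not strict. Region 8 in HOXB3 stood at 67.6 in knockdown cells and 74.8 in control cells, and region 16 at HOXB6 at 85.2 and 72.9. Median levels were 11.5 CPM per kb in knockdown cells and 7.94 in control cells over the HOXB9 regions, against 1.81 and 0.88 over HOXB1 to HOXB3. These rest on few counts, 92 in knockdown and 86 in control over all 4 HOXB9 regions.

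Near HOXB5, HOXB6 and HOXB7, H3K9me3 differed in direction between regions. In the 3 that passed the filter the fold changes were below 0 and within their error. Region 19 had 12, 26 and 28 H3K9me3 counts in knockdown libraries and 24, 37 and 22 in control libraries, or 10.4 ± 3.12 CPM and 13.6 ± 5.49 CPM (log2 fold change -0.36, SE 0.46, edgeR adjusted p = 0.882). The HOXB5 start had 11, 11 and 6 counts in knockdown libraries and 10, 11 and 17 in control libraries (log2 fold change -0.37, SE 0.70, edgeR adjusted p = 0.924). Region 20 in HOXB7 had 3, 7 and 20 counts in knockdown libraries and 6, 12 and 15 in control libraries. The groups overlapped in each of these regions, and each SE was larger than its fold change (region 20, -0.19 with SE 0.76, edgeR adjusted p = 0.969). The other HOXB6 regions, below the filter, averaged higher in knockdown. Region 18 had 5, 30 and 11 counts in knockdown libraries and 5, 6 and 3 in control libraries, and region 17 had 12, 15 and 2 in knockdown libraries and 6, 8 and 6 in control libraries. Region 16 had 20 counts over the knockdown libraries and 10 over the control libraries. The groups overlapped in all of these. The HOXB2 start had 13, 11 and 5 counts in knockdown libraries and 3, 10 and 2 in control libraries (log2 fold change 0.96, SE 0.99, edgeR adjusted p = 0.844).

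Those 4 regions were the ones of 24 that passed the H3K9me3 filter, 3 with a log2 fold change below 0 and 1 above. None was called, where 0.00982% of all tested regions were called by edgeR, and none had an unadjusted p under 0.05, against 8.31% of all tested regions. None of the 4 had groups without overlap, where 7.19% of all tested regions had knockdown below control and 7.17% above it. Below the filter, region 7 in HOXB3 was higher in knockdown without overlap on CPM. It had 6, 14 and 13 counts in knockdown libraries and 0, 6 and 4 in control libraries. The HOXB4 to HOXB8 sums were 45.2, 58.7 and 44.9 CPM in knockdown libraries and 35.9, 58.0 and 39.0 CPM in control libraries, a log2 ratio of 0.16 with overlap. The HOXB1 to HOXB3 sums were 30.3, 25.7 and 21.6 CPM in knockdown libraries and 9.11, 27.9 and 13.4 CPM in control libraries. Their log2 ratio was 0.62 with overlap, from 157 counts in knockdown and 102 in control. Control replicate 2 was the highest control library for H3K9me3 in every stretch of the cluster.

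**Figure D4:**
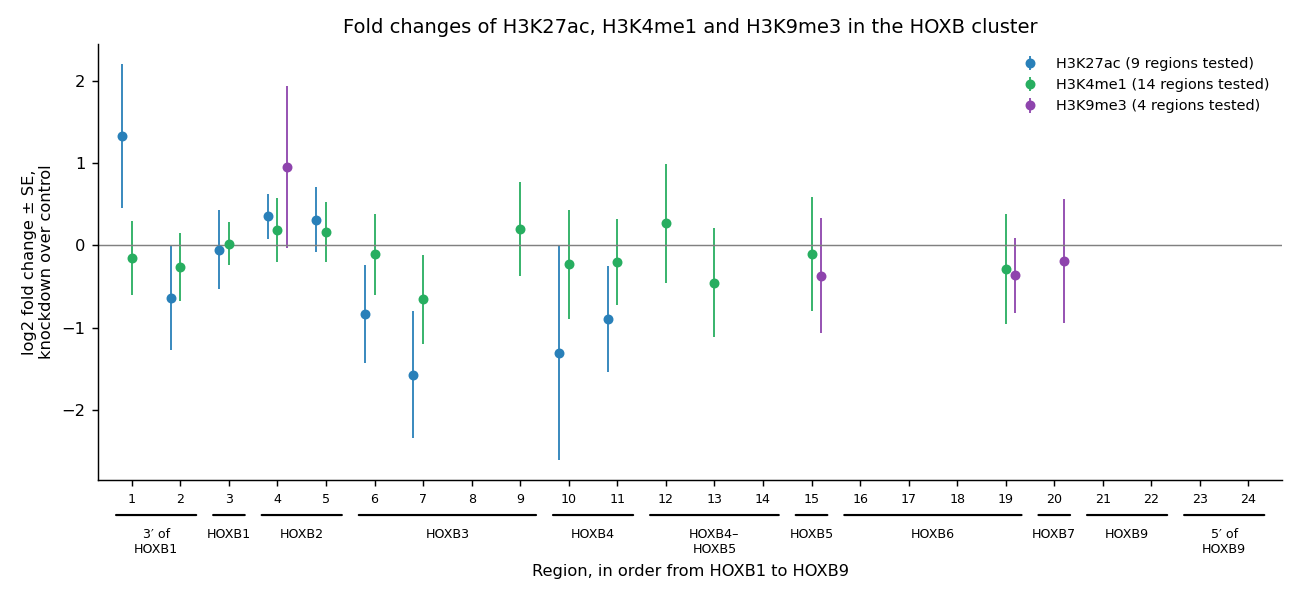
Log2 fold change, knockdown over control, with SE (edgeR, n = 3 libraries each) of the HOXB regions that passed the filter for H3K27ac (9), H3K4me1 (14) and H3K9me3 (4). No region passed an adjusted p of 0.05, and the H3K27ac values run from 1.33 at region 1 to -1.57 at region 7.

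The regions around the cluster had little H3K4me3 in either group. The 12 regions within 120 kb on either side had H3K4me3 sums of 9.33, 10.9 and 8.59 CPM in knockdown libraries and 10.6, 9.12 and 10.6 CPM in control libraries, with a log2 ratio of -0.07. The nearest region on the HOXB1 side (chr17:46590697-46591479) had 13, 6 and 4 counts in knockdown libraries and 2, 13 and 8 in control libraries. The nearest on the HOXB9 side (chr17:46804282-46804834) had 0, 1 and 3 in knockdown libraries and 3, 2 and 0 in control libraries. Just inside the interval, region 1 had 10, 0 and 2 counts in knockdown libraries and 4, 12 and 2 in control libraries, and region 24 (chr17:46719928-46720180) had 1, 0 and 0 in knockdown libraries and 0, 0 and 2 in control libraries. The groups overlapped in all 4 of these edge regions. The neighbours carried more H3K27ac than H3K4me3, with sums of 106, 91.3 and 110 CPM in knockdown libraries and 62.0, 156 and 57.3 CPM in control libraries. Control replicate 2 was apart from the other controls there, and the groups overlapped.

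Over the whole cluster, sums of H3K4me3 were 170, 152 and 132 CPM in knockdown libraries and 172, 204 and 184 CPM in control libraries, means of 152 ± 18.97 and 187 ± 16.2 CPM with a log2 ratio of -0.30. Knockdown replicate 1 and control replicate 1 were nearly level. The log2 ratio of the whole cluster was -0.09 for H3K27ac, -0.09 for H3K4me1 and 0.26 for H3K9me3, each with groups that overlapped. The whole-cluster H3K4me3 ratio was thus smaller in size than that of the HOXB4 to HOXB8 stretch.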

How the data were processed

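H3K4me3, H3K27ac, H3K4me1 and H3K9me3 were profiled by CUT&Tag in 24 libraries, grouped by the labels. The authors deposited unscaled counts of reads over 1 list of 153244 hg19 regions, the same in every library. Bowtie2 (version 2.4.5), bedtools (2.30.0), deepTools (3.5.4) and hg19 come from the submitters' processing notes. Read filters and the origin of the regions are not given in the sources used here. Of the counts above 0, 51.9% to 65.9% were even, as when both mates of a pair are counted, so counting intervals may be too narrow.

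Each mark was tested on its 6 libraries with edgeR 4.0.16 in R 4.3.3 (TMM, filterByExpr, robust quasi-likelihood test, group as the only term) over the whole list, with Benjamini-Hochberg adjustment, and regions with an adjusted p under 0.05 were called. The SE is the log2 fold change over the square root of F. CPM values use TMM-scaled library sizes. Alternatives were RLE scaling, library totals, DESeq2 1.42.0, no filter, a stricter one (3 or more libraries at a CPM equal to 30 reads of the smallest), a replicate block and leaving out each library. No hg19 annotation was used. Gene positions come from general knowledge, and apart from HOXB3 their spacing differed from RefSeq on GRCh38.p14 by at most 0.62 kb. HOXB3 differed by 15.3 kb, since the annotated gene reaches to its longest transcript, so its start here is that of a shorter form. Of the 9 members, 1 had a promoter sequence in the tables used. No 2 libraries of a group agreed within sampling noise (their chi-square over its degrees of freedom was 3.09 to 10.4), and all were kept.

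Members, stretches and lists were chosen with earlier results of these data known. Named regions were those called in H3K4me3, the 5 highest per length in each mark, up to 6 per mark with non-overlapping groups or an unadjusted p under 0.05, and the region nearest each gene start. Other regions were chosen after their values were seen. ZNF436 itself and unnamed genes were not analysed here.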

Additional observations from a re-analysis of the deposited data

How the results depend on the processing

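The count of H3K4me3 calls in the cluster depended on the setting. It was 2 with all libraries, 6 with no filter on low counts, 5 with DESeq2 (where 3 of the 17 regions had no adjusted p) and 1 to 10 when each library was left out, with 10 without control replicate 3 and 1 when any other single library was left out. Shares called over all regions are not given for these alternatives, so a higher count cannot be read as a stronger result for the cluster. H3K27ac, H3K4me1 and H3K9me3 had 0 calls under every setting that gave a value. For H3K9me3, the strict filter left no HOXB region and DESeq2 gave none an adjusted p. Fold changes of named regions changed sign under an alternative 9 times for H3K4me3, 4 for H3K27ac, 14 for H3K4me1 and 1 for H3K9me3, none of them a called region. The H3K4me3 ones were at regions 4, 5 and 6, from HOXB2 into HOXB3. At the HOXB1 start H3K27ac was 0.45 without control replicate 3, against -0.05 with all libraries. The log2 ratio over the HOXB4 to HOXB8 stretch, chosen after the values were seen, was -1.39 to -1.01 for H3K4me3 and -1.61 to -1.13 for H3K27ac when each library was left out. The whole-cluster ratio was -0.39 to -0.21 for H3K4me3 and -0.25 to 0.02 for H3K27ac. Deviations of same-numbered libraries had correlations from -0.0985 to 0.0641, and a differently numbered pair reached 0.0984 (H3K4me1, knockdown replicate 2 with control replicate 1). No pairing by number was seen, but these correlations cannot exclude one, since noise of single libraries would also lower them. With the replicate block there were 2 H3K4me3 calls and 0 for each other mark, and the cluster ratio for H3K4me3 was -0.30. Depth limits H3K9me3 most: 4 of 24 regions could be tested, and the HOXB9 regions held too few counts in H3K4me3, H3K27ac and H3K4me1 for a difference to be read.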
